A study of Mus musculus with 6 samples.

Results

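The RNA of climacteric mouse ooplasts was compared with that of young mouse ooplasts, using 2 of the 6 arrays of a study of reproductive ageing and nuclear reprogramming. An ooplast is an oocyte from which the chromosomes have been taken out, so its RNA is the maternal store of the cytoplasm. Both samples were chosen by their labels: each came from females of the strain B6C3 F1, the young ooplasts from young females and the climacteric ooplasts from females labelled climacteric, the late stage of reproductive life. No treatment is labelled for either group, and the age in weeks, the number of females and the number of ooplasts pooled are not given in the sources used here. The other 4 arrays held blastocysts, 2 labelled young and 2 labelled climacteric. With 1 array for each age of ooplast there is no replicate check and no test, and every difference below describes these 2 arrays.

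A growing oocyte makes and stores messenger RNAs for meiosis, fertilisation and the first divisions, and then stops transcription. From that point the amount of an RNA depends on storage, polyadenylation and decay. In old oocytes, weakened cohesion between sister chromatids, chromosome missegregation and mitochondrial decline are well described. Ooplasts are also the recipients in nuclear transfer, where maternal factors reprogram a somatic nucleus.

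Of 41174 non-control probes, 15516 (37.7%) gave a signal flagged as well above background on each of the ooplast arrays, and they measured 12289 of 27597 names. Levels are given as log2 of the background-corrected Cy3 signal minus the 75th percentile of the same array, so a level of 0 is that percentile. Differences are climacteric minus young on the log2 scale, where 1 is 2-fold. Well-above-background spots made up 42.4% of the young and 42.2% of the climacteric ooplast array, and 49.9% to 57.3% of the blastocyst arrays. The labelled cell type held against its markers: 10 of 11 egg coat and oocyte-secreted genes on the array were measured on both ooplast arrays. Their summed linear level was 5215 in young and 4782 in climacteric ooplasts, against 53.8 to 103 in blastocysts. The 16 markers of embryo lineages summed to 25.6 and 25.0 in ooplasts and to 1664 to 1961 in blastocysts.

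The 2 ooplast arrays differed in an uneven way that touches every list of lower genes. At least 16-fold differences were found at 289 probes that were lower in climacteric ooplasts and at 3 that were higher; at 4-fold the counts were 557 and 82. Replicate arrays of one group showed few probes at least 16-fold apart. Between the young blastocyst arrays 22 probes were at least 16-fold higher on the array of replicate 2 and 2 were lower, and between the climacteric blastocyst arrays 1 was higher and 4 were lower. At 4-fold, 228 probes were higher and 119 lower on young blastocysts 2 than on young blastocysts 1. Between the climacteric blastocyst arrays the 4-fold counts were 120 and 124. The 289 probes had a median level of 6.89 in young ooplasts and 0.59 in climacteric ooplasts. In blastocysts their medians lay between -1.50 and 0.59, with the highest on young blastocysts 2. On none of the other 5 arrays was the median of these probes as high as on the young ooplast array.

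Part of that excess was shared with young blastocysts 2. Of 795 probes that were at least 4-fold brighter on young blastocysts 2 than the median of the other 3 blastocyst arrays, 218 (27.4%) were also at least 4-fold brighter on young than on climacteric ooplasts. The share over all 41174 probes was 2.79%, and for the corresponding sets of the other 3 blastocyst arrays it was 2.35% to 5.68%. For the opposite direction, at least 4-fold brighter on climacteric ooplasts, the share over all probes was 1.29% and that of the 4 sets lay between 2.35% and 4.60%. Per the file headers, young ooplasts were at array position 1 of slide 1 and young blastocysts 2 at position 1 of slide 2. The climacteric ooplasts were at position 2 of slide 1. Position and age cannot be told apart for the ooplasts, and the part of position in any result was not tested. The bright probes were spread over the array: in 8 rectangles of it, 2.97% to 4.24% of measured probes were at least 4-fold lower in climacteric ooplasts.

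**Figure D1:**
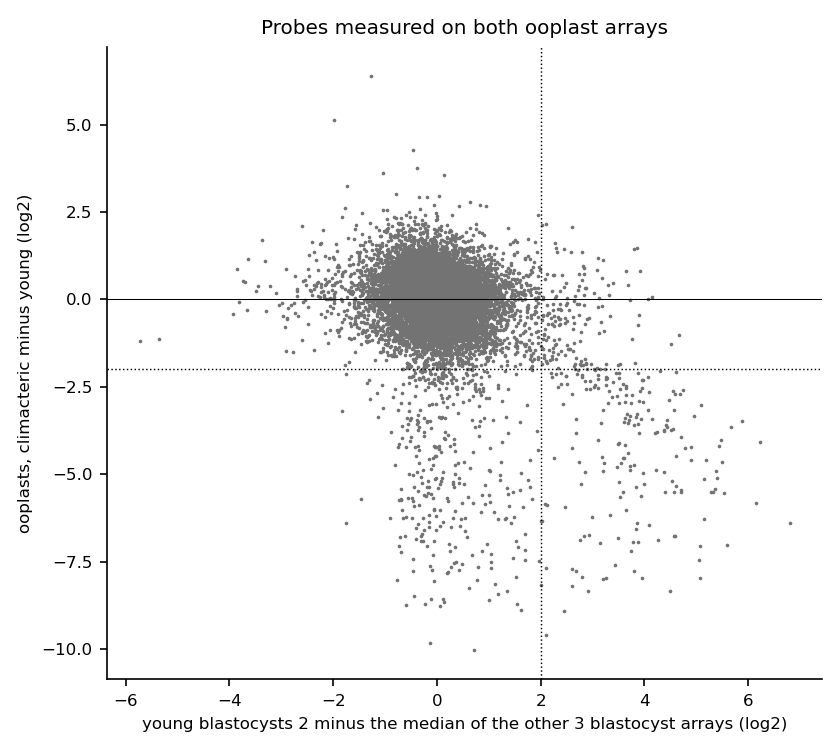
Each point is 1 of the 15516 probes measured on both ooplast arrays. The x axis is the log2 level on young blastocysts 2 minus the median of the other 3 blastocyst arrays, the y axis is climacteric minus young in ooplasts (log2), and dotted lines mark 4-fold. The cloud has a long tail downward and almost none upward, and one arm of the tail runs to the lower right, where probes are bright on both arrays at position 1.

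Repeat spots show how far the scanner and hybridisation varied within an array. Probes printed at 10 scattered spots gave 110 that were measured on both arrays, and the SD of the log2 difference over the 10 spots had a median of 0.10. The scanner's own error for the difference of 1 probe had a median of 0.21. Probes of the same gene varied more: over 2671 genes with 2 or more measured probes the SD of their differences had a median of 0.43. Of the 110 repeated probes, 4 were at least 2-fold higher and 16 at least 2-fold lower in climacteric ooplasts, and for all 20 every one of the 10 spots lay on the same side. Lower with 10 of 10 spots were En2, a homeobox factor (-6.28 ± 0.22, SD over spots), and Mdm2, which encodes the ubiquitin ligase of p53 (-1.21 ± 0.15). Higher were the lipoprotein gene Apoe (1.85 ± 0.05), the tumour suppressor Trp53 (1.58 ± 0.06), the receptor Notch1 (1.46 ± 0.08) and the growth factor Igf2 (1.35 ± 0.05). The spots of a probe thus repeated closely, while other probes of the same gene often did not. The other measured probe of Mdm2 gave 0.18, that of Trp53 0.54 and that of Notch1 0.75.

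Over the 12289 genes, taking the mean of the measured probes, 816 were at least 2-fold higher in climacteric ooplasts (6.64%) and 1174 at least 2-fold lower (9.55%). The median difference over all genes was 0.14. Dim genes carried this shift: genes at a mean level from -1 to 0 had a median of 0.27, and genes at levels from 2 to 4, from 4 to 6 and above 6 had medians of 0.02, 0.05 and 0.00. Among 905 genes above level 6, 24.2% were at least 2-fold lower and 3.98% higher. The all-gene median depended on the scaling, from 0.08 with the normexp background to 0.34 with the percentile taken over measured probes. Quantile scaling gave 1177 higher and 1121 lower, the percentile over measured probes 1499 and 884, the authors' deposited values 1219 and 1127, and normexp 357 and 868. The split between higher and lower thus depended on the processing.

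**Figure D2:**
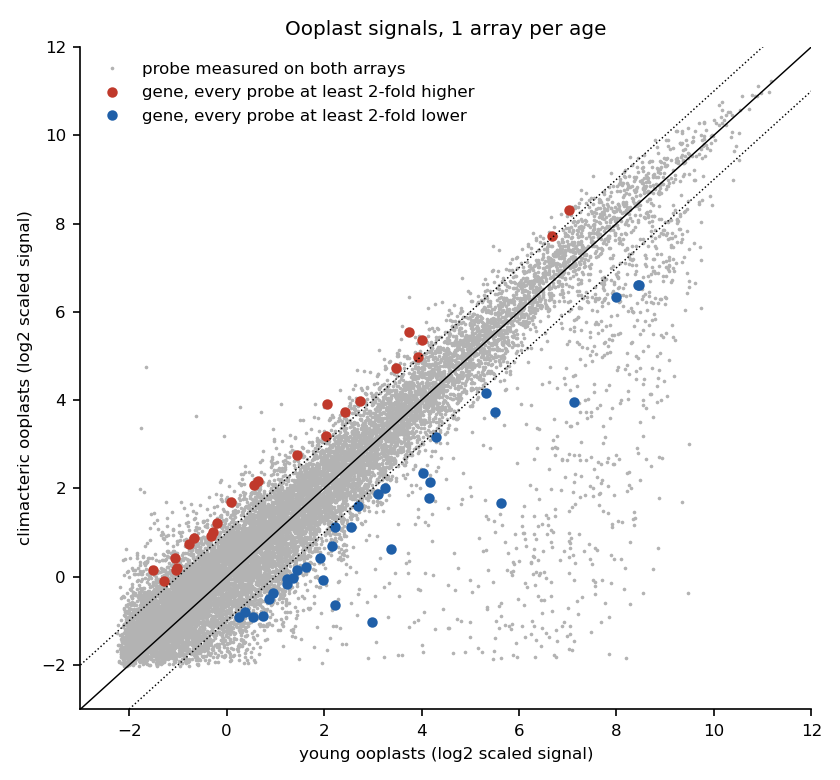
Log2 scaled signal of each measured probe in young (x axis) and climacteric ooplasts (y axis), in grey, with the genes whose probes all differ at least 2-fold in red (24 higher) and blue (33 lower), each at the mean of its probes. The solid line marks equality and the dotted lines 2-fold. Grey points far below the line at young levels of 6 to 9 are the probes with very large decreases, and few of them belong to the blue genes.

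Agreement between probes was therefore used to choose the genes described first. Of the 2671 genes with 2 or more measured probes, 281 differed at least 2-fold by their mean, and in 59 of these (21.0%) every probe passed 2-fold the same way. Every probe was higher in 25 genes (0.936%) and lower in 34 (1.27%); 46 genes had probes past 2-fold in both directions. Leaving out 2 genes with clone names, 24 were higher and 33 lower. Some pairs of probes share sequence: the measured probes overlapped in 4 of the 24 and in 9 of the 33. Agreement in those genes is a repeat of nearly the same probe.

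The higher genes with agreeing probes had varied roles, and Vps11 and Mgst3 had the largest differences on their weaker probe. Vps11, a core subunit of the tethering complexes of endosomes and lysosomes, had levels of 2.06 in young and 3.92 in climacteric ooplasts, a difference of 1.86 (3.63-fold). Its probes overlapped on chromosome 9 of mm8, at 44099299 to 44099358 and 44099319 to 44099378, and gave 1.89 and 1.83. Mgst3, a microsomal glutathione S-transferase, went from 3.73 to 5.55, and its probes differed by 1.56 and 2.08.

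Zfp414, a zinc finger gene, was 0.64 in young and 2.17 in climacteric ooplasts (difference 1.53, overlapping probes). Emc3, part of the complex that inserts membrane proteins at the endoplasmic reticulum, was -0.19 and 1.21, with probes at 1.33 and 1.47. Ppp4c, the catalytic subunit of protein phosphatase 4, was 4.01 and 5.36, with probes at 1.32 and 1.37. The SD between the paired probes of these genes was 0.04 to 0.10. Poc1a, a centriole gene, gave 1.32 and Rhot1, which encodes a mitochondrial GTPase that links mitochondria to microtubule motors, gave 1.51. The ubiquitin ligase gene Dzip3 differed by 1.26, the retinal reductase gene Dhrs3 by 1.52 and the corepressor gene Bcorl1 by 1.24. Rac2, a small GTPase typical of blood cells, was -1.01 and 0.20, a difference of 1.21. The zinc finger gene Zfp296 was already bright, at 7.03 in young and 8.30 in climacteric ooplasts. Ldb1, a cofactor of LIM-domain factors, differed by 1.59, the hydrolase-like gene Serhl by 1.48 and Farsa, a subunit of phenylalanyl-tRNA synthetase, by 1.30. No gene reached 4-fold on every probe in the higher direction. The other 9 higher genes, among them the kinesin gene Kif20a (1.06) and the repair factor gene Nhej1 (1.32), had a weaker probe between 1.00 and 1.15.

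The lower genes included several with far larger and less even decreases. Cab39, a scaffold of the kinase LKB1, had levels of 5.63 in young and 1.67 in climacteric ooplasts, and its probes on chromosome 1 gave -5.66 (87680852 to 87680911) and -2.26 (87681158 to 87681217). Emc1, another subunit of the membrane protein complex named above for Emc3, was 2.23 and -0.63, with probes at -1.76 and -3.96. The probe pairs of both genes passed 2-fold in the same direction but differed from each other by more than 2 log2 units. Emc1 and Emc3, which work in the same complex, stood on opposite sides.

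More even decreases were seen elsewhere. Chmp4b, a filament-forming ESCRT-III subunit, was 1.98 and -0.07, with probes at -1.93 and -2.18. Chchd2, a protein of the mitochondrial intermembrane space, was 1.63 and 0.21, and its overlapping probes gave -1.42 and -1.43. The subunit gene Ndufs6 of respiratory complex I was 0.96 and -0.36, from overlapping probes at -1.30 and -1.34. The SD between the probes was 0.17 for Chmp4b, 0.01 for Chchd2 and 0.03 for Ndufs6. The mitochondrial ribosomal gene Mrps17 differed by -1.63, the nucleic acid binding protein gene Kin by -1.46 and Ubxn4, a factor of degradation at the endoplasmic reticulum, by -1.41. Set, a histone chaperone and phosphatase inhibitor, was again uneven, with probes at -1.36 and -3.40. So was the RNA-binding protein gene Msi2, with probes at -1.69 and -3.80. Pde6h, known as a cone photoreceptor subunit, gave a mean of -2.03, the transporter gene Slc6a17 -1.86 and the atypical cadherin gene Fat3 -1.84.

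**Figure D3:**
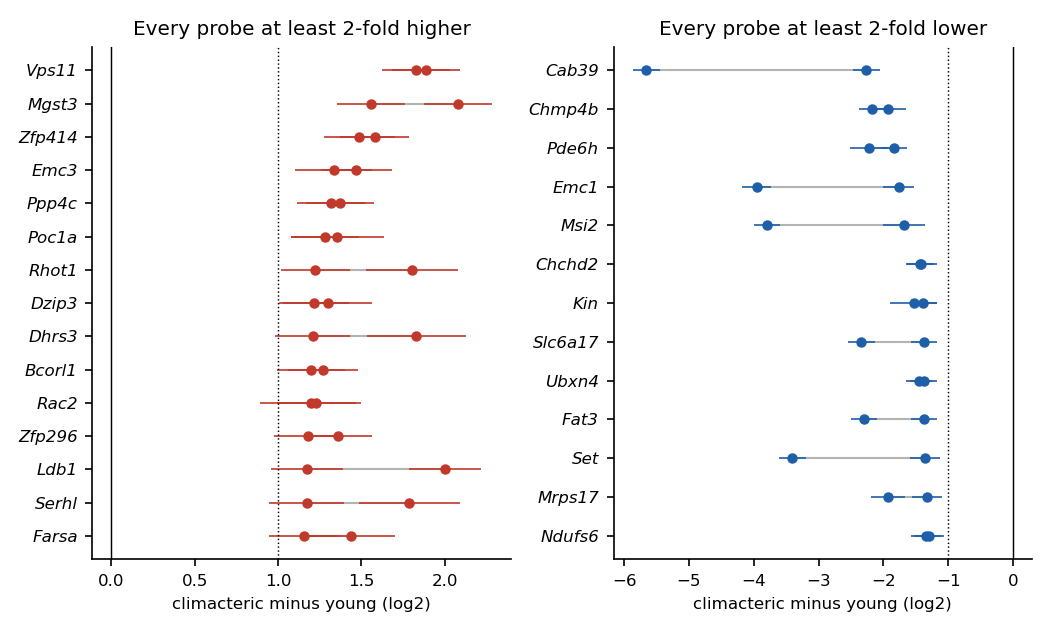
Climacteric minus young (log2) for every measured probe of 15 higher and 13 lower genes whose probes all passed 2-fold, ordered by the weaker probe. Points are probes, bars are the scanner's error of the difference and grey lines join the probes of a gene; the x axes of the panels differ in length. Probes of the higher genes lie between 1.15 and 2.08, while Cab39, Emc1, Msi2 and Set each have a probe below -3.

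Several of the lower genes were also bright on the other array at position 1. Of the 30 lower genes measured on all 6 arrays, 7 (23.3%) were at least 2-fold brighter on young blastocysts 2 than the median of the other 3 blastocyst arrays, against 2.24% of all 1963 genes with 2 or more probes so measured and 0 of 22 higher genes. Fat3 exceeded the other blastocyst arrays by 3.03, Slc6a17 by 2.59, Msi2 by 2.31, Set by 1.98 and Pde6h by 1.49. The same quantity was 0.20 for Cab39, -0.07 for Emc1, -0.52 for Chmp4b and 0.25 for Chchd2. Among lower genes of the gene lists below, it was 2.64 for Cpeb1, 2.40 for Pld6, 2.12 for Bbc3, 1.96 for Esrra and 1.62 for Prpf19. Many others of those lists did not show it, such as Aurka (0.23) and Bcl2 (0.34). Some of the lower genes were thus also bright on the other position 1 array, and others were not.

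Genes read by 1 probe held most of the very large decreases, as they held most of the measured probes. Of the 289 probes at least 16-fold lower, 209 (72.3%) were the only measured probe of their gene. The same held for 9618 of all 15516 measured probes, also most of them but a somewhat lower share. The other 80 belonged to genes with further probes, and for 72 of these no other measured probe was 2-fold lower. The gene Bag6, whose product guards newly made membrane proteins, had probes at 2.59, 1.80, 0.69 and -7.50. Adam11, a metalloprotease-like gene, had probes at -5.90, -8.35 and 1.39. Cntln, a centriole linker gene, had probes at -8.35, -0.35 and 0.71, and Synpo2, an actin-binding gene, at -8.66 and 0.16. These 4 genes show that a mean over probes can hide opposite readings, and for each the bright reading was on the young array.

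Gdf9 and Bmp15, the growth factors that oocytes secrete to their follicle, were 10.89 and 10.89 (difference 0.00) and 6.69 and 6.79 (0.11). The egg coat gene Zp3 differed by 0.55 on 2 probes, Zp1 by -0.29 and 1 probe of Zp2 by -0.57. The other Zp2 probe stood on the opposite side: it was not well above background in young ooplasts and -0.13 in climacteric ones, at least 4.34-fold higher. Of the 10 measured egg coat and secreted genes, 1 was at least 2-fold higher and 0 lower: Astl, the protease that hardens the egg coat after fertilisation, was 1.15 and 2.47. The list's median was 0.07, close to the 0.14 of all genes. Among 20 maternal-effect genes, 2 were higher, the corepressor gene Trim28 (1.17, 1 probe) and the heat shock factor gene Hsf1 (1.11, with probes from -0.04 to 1.80), and 0 were lower. Nlrp5 differed by 0.55, Ooep by -0.63, Dppa3 by -0.48 and Npm2, the egg's histone chaperone, by 0.33. Of 14 oocyte transcription factors the homeobox gene Nobox was lower (4.27 and 3.18), and Pou5f1 differed by -0.46. Of 17 egg receptors and activation genes the channel gene Trpm7 (-1.16) and Wee2, the oocyte kinase that holds meiotic arrest and permits exit from metaphase (-1.10), were lower. Of 26 genes followed throughout and measured here, 21 were within 2-fold. The other 5 were Bub1b, Dnmt1, Fcer1g, Cd68 and Timp2. Over all genes 16.2% were at least 2-fold apart. Timp2 was chosen after its value was seen and the list was made with earlier results known, so these shares cannot be compared.

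Meiotic genes were mostly within 2-fold, with Bub1b as the clearest exception upward. Bub1b, a spindle checkpoint kinase whose loss is linked to ageing, was 3.95 in young and 5.45 in climacteric ooplasts, a difference of 1.51 (2.84-fold) on 1 probe. Of the 35 measured genes of the checkpoint, kinetochore and anaphase promoting complex it was the only one at least 2-fold higher. Mis12, a kinetochore gene, was the only one lower (-1.10). The shares of all genes were 6.64% higher and 9.55% lower. Mad2l1 differed by -0.33 and Sgo2a, the protector of centromeric cohesion, by 0.28. Of 29 kinases and regulators of meiotic arrest, Aurka, the spindle pole kinase, was lower (8.02 and 5.93, -2.08) and so was Cpeb1, which controls polyadenylation of stored messages (9.25 and 8.02, -1.23). Ccnb1 differed by -0.01 over 3 probes and Mos by -0.14.

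Among 28 cohesin, condensin and meiotic chromosome genes, 0 were higher and 3 (10.7%) lower, near the 9.55% of all genes. Smc1a, a cohesin ring subunit, had a mean of -3.44, but its probes read -6.70 and -0.17. Smc4 of condensin gave -2.07 and -0.95, and the topoisomerase gene Top2a -1.21 on 1 probe. Rec8, the meiotic cohesin subunit, was higher by 0.68, with probes at 0.35 and 1.02. Of 49 spindle, kinesin and actin genes 6 (12.2%) were higher and 3 (6.12%) lower, against 6.64% and 9.55% of all genes. Kif20a agreed on both probes; the actin regulators Wasf1 (1.66), Cfl1 (1.36) and Arpc4 (1.35) were also higher. Myl12b, a myosin light chain gene, had a mean of -2.39 with probes at -5.24 and 0.46, and Arpc2, an actin nucleation subunit, differed by -1.25.

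Genes of the respiratory chain had medians below that of all genes, by small steps. Of 33 complex I genes 0 were at least 2-fold higher and 3 lower, with a median of -0.18; 25 of the 33 lay below the all-gene median. Ndufs6 agreed on its overlapping probes, and Ndufa6 (-1.16) and Ndufa5 (-1.15) had 1 probe each. Of 37 genes of complexes II to V 0 were higher and 5 (13.5%) lower, with a median of -0.24. For complex I the lower share was 9.09%, and over all genes it was 9.55%. Cox7c, a small subunit of cytochrome oxidase, was 1.02 and -0.97 (-1.99), and Cox6c (-1.41), Atp5pb (-1.34), Sdhd (-1.14) and Uqcrb (-1.02) followed. Both medians were below that of all genes under each of 12 settings. The lean was smaller for the few genes read by 2 or more probes. Their median was 0.04 over 7 genes of complex I and -0.02 over 8 genes of complexes II to V, against 0.14 over all genes. In blastocysts the medians of the 2 lists were -0.21 and -0.17 on slide 1 and 0.14 and 0.20 on slide 2, so the sign there depended on the pair.

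Of 40 genes of mitochondrial dynamics, import and DNA maintenance, 3 were higher and 6 lower. Ssbp1, which binds mitochondrial DNA, gave -3.47 and -0.89 on its probes. Esrra, a regulator of mitochondrial genes, gave -4.25 and 0.80, Timm17b ranged from -4.21 to 0.50 and Vdac1 from -3.01 to 0.50. Tfb1m (-1.40), a mitochondrial transcription factor, had 1 probe, and Slc25a4, the ADP/ATP carrier, gave -2.13 and -0.56. Higher were the import genes Timm44 (1.20) and Tomm22 (1.03) and the channel gene Vdac2 (1.03), while Tfam, which packs mitochondrial DNA, differed by 0.60. Of 42 genes of glycolysis, pyruvate and the TCA cycle, 4.76% were higher and 7.14% lower, below both shares of all genes. The lower ones were Ldha (-1.58), Mpc2 (-1.34) and Slc16a3 (-1.05), and the higher ones Idh3g (1.27) and Pkm (1.20).

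Antioxidant genes stood on both sides. Of 45 measured, 4 (8.89%) were higher and 4 (8.89%) lower, near the 6.64% and 9.55% of all genes. Their median was -0.11. Beside Mgst3, the selenoprotein gene Msrb1 was higher (1.17), and so were the haem oxygenase genes Hmox1 (1.15) and Hmox2 (1.02). Lower were the stress genes Sesn2, with probes at -5.38 and -0.05, and Sesn1 (-1.05), the transferase gene Mgst1 (-1.84 and -0.35) and the metallothionein gene Mt2 (-1.01). The superoxide dismutase genes Sod1 and Sod2 differed by -0.37 and 0.11. Of 44 DNA damage and repair genes, H2ax (1.35) and Trp53 (1.06, mean of probes at 0.54 and 1.58) were higher (4.55%). Lig1, a DNA ligase (-2.81), Xrcc2 (-1.43) and the polymerase gene Polb (-1.01) were lower (6.82%), each on 1 probe. Of 28 telomere, sirtuin and NAD genes, Nmnat1 (1.32), Acd (1.12) and Sirt2 (1.00) were higher (10.7%) and Nhp2 (-1.70) was lower (3.57%). Sirt1 differed by -0.57.

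Ribosomal protein genes had a median below that of all genes. Of 78 measured, 0 were at least 2-fold higher and 10 (12.8%) lower. The lower share was 9.55% over all genes and 10.8%, 11.7% and 24.2% over genes at levels 2 to 4, 4 to 6 and above 6, so this count does not stand out. Their median was -0.25, against 0.14 over all genes and 0.00 to 0.05 over genes above level 2, and 61 of the 78 lay below the all-gene median. Rpl8 was 7.82 and 5.22 (-2.60), Rpl13a 2.37 and 0.51 (-1.86), Rps27a 5.74 and 4.24 (-1.50), Rpl5 2.55 and 1.20 (-1.35) and Rps23 5.82 and 4.59 (-1.23), each on 1 probe. The 30 of these genes with 2 or more probes had a median of -0.25 as well. The group's median stayed below 0 under all 12 settings, between -0.27 and -0.02. In blastocysts the climacteric minus young median of the same genes was -0.26 on slide 1 and 0.30 on slide 2.

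Other groups of RNA use, translation and signalling had genes on both sides. Over all genes 6.64% were at least 2-fold higher and 9.55% lower. Of 51 translation factors 3 (5.88%) were higher, among them the cap-binding repressor gene Eif4ebp1 (1.48) and Eif3a (1.31). Lower were 5 (9.80%), among them Eif3m (-1.33), Eif4g1 (-1.24) and Eef2 (-1.12). Of 65 genes of mRNA storage, deadenylation and decay 3 (4.62%) were higher and 3 (4.62%) lower. Higher were the polyadenylation scaffold Sympk (1.98), the exosome nuclease Exosc10 (1.40) and the decapping factor Edc4 (1.31). Lower were Dis3, the catalytic exosome subunit (6.66 and 0.78, -5.88), Exosc3 (-1.37) and the deadenylase partner Cnot4 (-1.05 over 3 probes). Dis3 had 1 measured probe, and it belongs with the probes at least 16-fold lower. Of 59 spliceosome genes 0 were higher and 3 (5.08%) lower, Prpf19 (-4.97), Cdc5l (-1.14) and Dhx15 (-1.07). Of 36 genes of gap junctions, cumulus signalling and oocyte metabolism, Akt2 (probes at 0.42 and 2.31), Plin3 (1.08) and the activin receptor gene Acvr1b (1.02) were higher. Of 22 genes of small RNA pathways, Asz1 (1.69) and Tdrd5 (1.12) were higher (9.09%), and Pld6 (-2.10), Tdrd3 (-1.58) and Tdrd7 (-1.41) lower (13.6%).

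Autophagy and lysosome genes had the lowest median of the 35 lists, -0.29 over 38 genes, with 1 higher and 6 (15.8%) lower, against 9.55% lower over all genes. Over its 7 genes with 2 or more probes the median was -0.06. The lysosomal proteases Ctsd (8.95 and 6.69, -2.26) and Ctsl (2.79 and 1.19, -1.59), the cholesterol carrier Npc2 (-1.84) and the autophagy genes Wipi1 (-1.49), Uvrag (-1.32) and Wipi2 (-1.16) were lower. The list's median was below 0 under all 12 settings, between -0.31 and -0.06. Of 56 proteasome and ubiquitin genes, 0 were higher and 3 (5.36%) lower, a smaller share than the 9.55% of all genes: Psmc1 (-1.98), Psmb4 (-1.16) and Skp1 (-1.01). Of 41 chaperone genes 4 (9.76%) were lower, about the share of all genes, and Stub1 (1.13) was higher. Hsp90b1, the endoplasmic reticulum member of the Hsp90 family, was lower on both probes (-1.21 and -1.01). Hspa5 (-1.40) and Cct7 (-3.65) were lower on 1 probe each, and Dnaja1 had probes at -4.19 and -0.49.

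Among 28 apoptosis genes 2 (7.14%) were higher, Htra2 (1.23) and Casp1 (1.22), and 4 (14.3%) lower, with a median of 0.23. Over all genes 6.64% were higher and 9.55% lower. Bcl2, the founding survival factor of its family, was 6.66 in young and -0.43 in climacteric ooplasts, a difference of -7.09 on 1 probe. Its relatives Bok (-3.99), Bbc3 (-1.83) and Bik (-1.26) were also lower on 1 probe each. No further probe of these 4 genes was measured on both arrays.

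Chromatin and reprogramming genes, of interest because ooplasts are used to reprogram nuclei, were largely level. Dnmt1, the maintenance DNA methyltransferase, was 0.69 and 2.59, a difference of 1.90 (3.73-fold) on 1 probe. It was the only one of 45 genes of DNA methylation, histone variants and reprogramming at least 2-fold higher. Dnmt3a differed by 0.21 on 2 probes and Tet3, the oxidase active in the zygote, by 0.39 with probes from -0.07 to 1.28. Chaf1a, a chromatin assembly subunit (-5.75) and the glycosylase gene Tdg (-2.10) were lower. Of 60 chromatin modifiers, Hdac9 (1.55) and Hdac3 (1.12) were higher (3.33%). Hdac1 (-5.56), Kdm5c (probes at -3.76 and 0.51), Dot1l (-1.52), Kat8 (-1.05) and Kdm2b (-1.01) were lower (8.33%). The shares of all genes were 6.64% higher and 9.55% lower. Of 19 imprinted genes Igf2 was higher and Mcts2 (-1.11) lower. Of 46 nuclear pore and import genes 0 were higher and 5 (10.9%) lower, near the 9.55% of all genes. The lower ones were Xpo7 (-2.54), Rangap1 (-2.03), Nup50 (-1.30 over 3 probes), Tnpo3 (-1.16) and Kpna4 (-1.06).

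**Figure D4:**
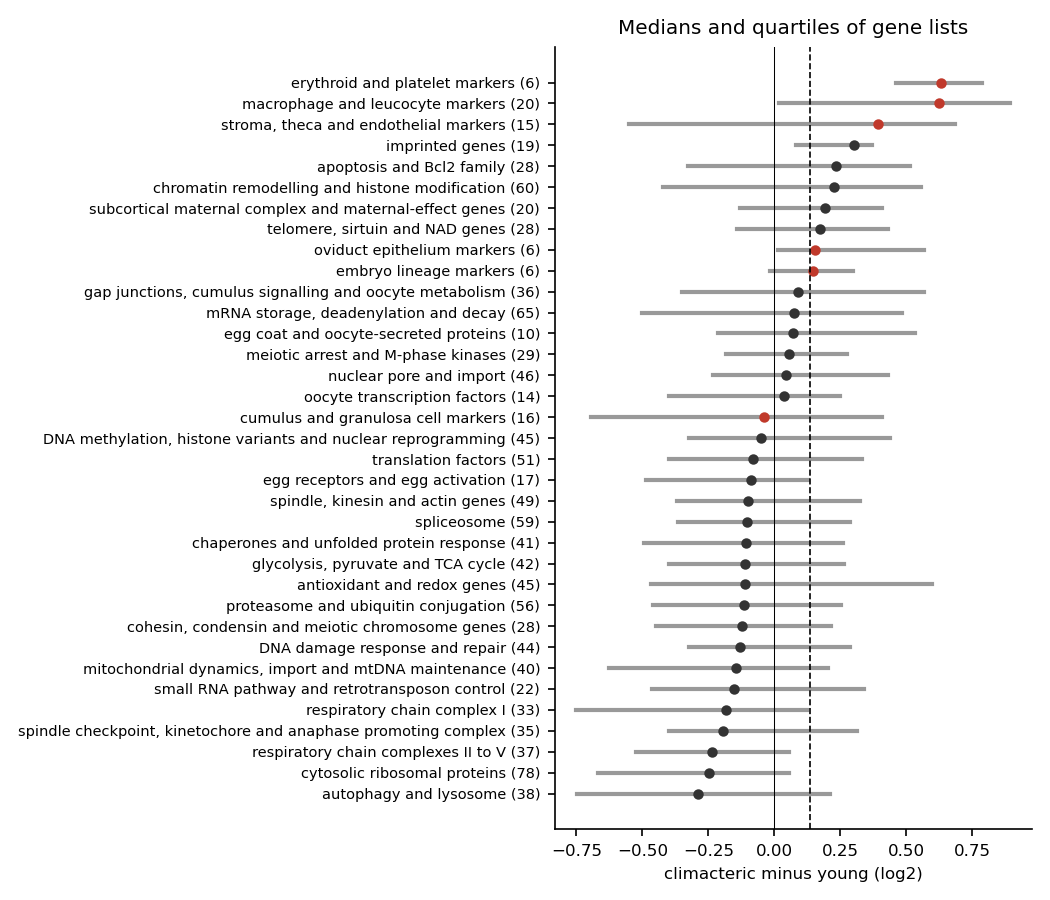
Climacteric minus young (log2) for the 35 gene lists, with the number of genes measured in brackets. Dots are medians (red for markers of other cell types), grey bars run between the quartiles over the genes of a list, the dashed line is the all-gene median of 0.14 and the thin line is 0. Autophagy (-0.29), ribosomal proteins (-0.25) and complexes II to V (-0.24) lie lowest, and erythroid (0.63) and leucocyte markers (0.62) highest.

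Several macrophage and other leucocyte markers were higher in climacteric ooplasts. Of 61 markers, the brightest probe was well above background for 23 in young and 32 in climacteric ooplasts. Any probe of the gene was well above background on both arrays for 20, on the climacteric array alone for 12 and on the young array alone for 3. Among probes of every kind, counted singly and not by gene, 1656 passed that limit only in climacteric ooplasts and 1737 only in young ones. Lyz2, the macrophage lysozyme, was at 3.94 in climacteric ooplasts and not well above background in young ones, at least 73.1-fold higher. In these bounds the dim array is taken at its lowest well-above-background signal or the probe's own signal, whichever is higher. By the same rule Ccl5, a T cell and macrophage chemokine, was at least 33.5-fold higher, the protease gene Ctss at least 27.1-fold and the complement gene C1qc at least 21.6-fold. Adgre1 (F4/80), which defines mouse macrophages, was at least 8.77-fold higher, the adaptor gene Tyrobp at least 6.19-fold, the perforin-like gene Mpeg1 at least 5.48-fold and Aif1 at least 3.30-fold. In the other direction, Gzma and Hdc, measured on the young array alone, were at least 1.55-fold and 1.57-fold lower. Measured on both arrays, Fcer1g, the Fc receptor gamma chain, was 0.28 and 3.84 (3.56, 11.8-fold), Mpo 1.98 higher, the lysosomal gene Cd68 1.46 and the receptor gene Csf1r 1.45.

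The signal was partial. Neither ooplast array gave a signal well above background for Ptprc (CD45), Itgam, Mrc1, Cd163, Spi1 or C1qa. The list's median over its 20 measured genes was 0.62, and it stayed above the all-gene median under all 12 settings. Most of these genes were dim, and dim genes as a whole were shifted upward. Genes at levels below -1, from -1 to 0 and from 0 to 2 had medians of 0.30, 0.27 and 0.10. On climacteric blastocysts 1, also from slide 1, Lyz2 was at 5.07 and Ctss at 1.73, while neither was well above background on the other 3 blastocyst arrays. The inhibitor gene Timp2 followed the same arrays: -1.76 and 3.37 in ooplasts (35.0-fold higher), 0.58 on climacteric blastocysts 1 and -2.61 to -4.63 on the other 3. Of 695 probes at least 4-fold brighter on climacteric blastocysts 1 than the median of the other 3 blastocyst arrays, 32 (4.60%) were also at least 4-fold brighter on climacteric ooplasts. The same share was 3.91% for young blastocysts 1, 2.52% for young blastocysts 2 and 2.35% for climacteric blastocysts 2, so the overlap was hardly larger than for the young array of the same slide. In bulk RNA, more cells of a type and more RNA per cell cannot be told apart, and the part of other cells in the ooplast differences was not tested. Rac2 and Apoe, named above, are also expressed by macrophages.

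**Figure D5:**
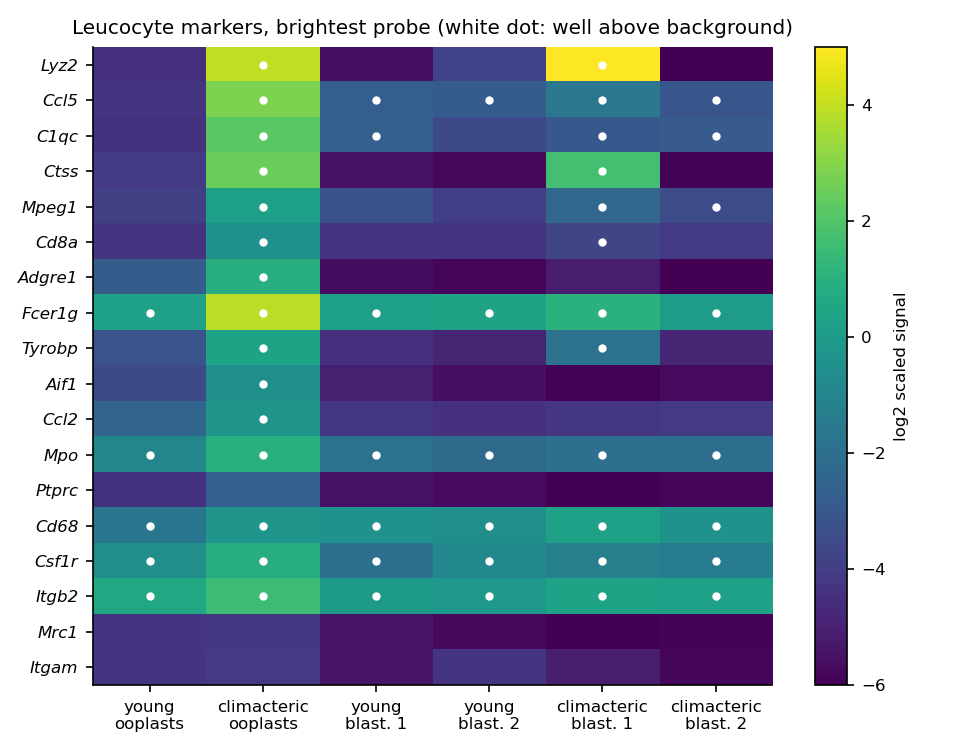
Log2 scaled signal (colour) of the brightest probe of 18 leucocyte markers, chosen after their values were seen, on the 6 arrays; a white dot marks a signal well above background. Lyz2 and Ctss have dots on climacteric ooplasts and climacteric blastocysts 1 alone, Adgre1, Aif1 and Ccl2 on climacteric ooplasts alone, and Ptprc, Mrc1 and Itgam on no array.

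Markers of further cell types were fewer. Of the erythroid and platelet markers 6 were measured, 1 was higher, the red cell anion exchanger gene Slc4a1 (0.17 and 1.52), and 0 were lower. The median was 0.63, and these too were dim genes, below level 2. Of 16 cumulus and granulosa markers 0 were higher and 3 (18.8%) lower, against 6.64% and 9.55% of all genes. The lower ones were Inha (probes at -5.65 and 0.17), Tnfaip6 (-2.18) and Nr5a1 (probes at -5.16 and 1.10). The aromatase gene Cyp19a1 was 6.30 and 6.22 and the hormone gene Amh 2.12 and 2.54, while Star, Fshr and Lhcgr had no well-above-background signal in ooplasts. Summed over 28 markers the level was 656 in young and 264 in climacteric ooplasts, and without Inha 308 and 257. The young excess left there rested on the brightest probe of Nr5a1, at 6.56 and 1.40. Of 15 stromal and endothelial markers, Tagln (1.13) and Egfl7 (1.06) were higher and Myh11 (-5.77) and Cldn5 (-2.31) lower. The stromal markers summed to 293 and 119, and without Myh11 to 91.9 and 116. The endothelial gene Pecam1, measured on the climacteric array alone, was at least 4.08-fold higher. Of 6 oviduct and 6 embryo lineage genes measured on both arrays, 0 were 2-fold apart, but others were measured on the young array alone. Ccdc39, a gene of motile cilia, was 5.01 in young ooplasts and at least 132-fold lower in climacteric ones. The oviduct markers summed to 292 and 116, or 259 and 116 without Ccdc39. The young excess left there rested on Dnah9, another marker of that list, at 7.96 and 6.68. The trophectoderm gene Cdx2 was at least 2.58-fold lower, Tdgf1 at least 2.64-fold and Fabp3 at least 2.17-fold.

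Genes measured on 1 ooplast array alone, on 2 or more probes, add a short list. There were 23 such genes for climacteric and 29 for young ooplasts, but the weaker probe passed its bound by 2-fold for only 5 and 6. Higher were Myh2, a muscle myosin (at least 9.64-fold), the leucocyte receptor gene Pirb (at least 3.95-fold), the transcription factor gene Gata2 (at least 2.39-fold), Zdhhc14 (at least 2.33-fold) and Neto2 (at least 2.16-fold). Lower were Leng9 (at least 3.08-fold), the chaperone gene Fkbp2 (at least 2.48-fold), the cytochrome oxidase assembly gene Cox19 (at least 2.34-fold), Zfp286 (at least 2.20-fold), the imprinted gene Snrpn (at least 2.12-fold) and Gpatch11 (at least 2.10-fold). All of these were dim on the array that measured them, with gene means between -0.81 and 1.13.

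Blastocysts offer the same ages in another stage. Of 22 higher genes whose probes agreed and were measured on all 6 arrays, 12 (54.5%) were higher in climacteric blastocysts on both slides, against 23.1% of all 1963 genes with 2 or more probes so measured, and 2 were lower on both. Of 30 lower genes 20 (66.7%) were lower on both slides, against 28.4%, and 5 were higher on both. The differences were small: 0 of the 22 and 3 of the 30 passed 2-fold on both slides. For the ooplast-higher genes Vps11 differed by 0.34 and 0.19, Ppp4c by 0.33 and 0.30 and Dzip3 by 1.04 and 0.78 in blastocysts. For the lower genes Slc6a17 gave -1.72 and -3.34 and Fat3 -1.62 and -3.10, and these are among the genes brighter on young blastocysts 2. Cab39 gave -0.23 and -0.36 and Chmp4b 0.10 and 0.01. Whether ooplasts and blastocysts differ in these genes was not tested.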

How the data were processed

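RNA was labelled with Cy3 and hybridised to 1-colour Agilent mouse arrays, per the labels' protocols. The authors' scanner files, from Agilent Feature Extraction 9.5 per the submitters' processing notes, hold processed signal intensity per spot after background subtraction, with flags and mm8 coordinates per the file headers. The deposited log2 table rose with the processed signal on every array and is centred to a median of 6.25 on each; its exact scaling is not given in the sources used here.

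The log2 of the signal minus the array's 75th percentile was averaged over spots of a probe, leaving out control and flagged spots, and over probes well above background on both ooplast arrays. Thresholds were 2-fold; no test was possible. Gene names were taken through accessions for 24375 probes, from current symbols for 6301, synonyms for 2426 and the files for 8072. Intensities give no depth; 1 array per age limits the precision. Replicates in blastocysts are labelled biological.

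Named were the 15 genes per direction with agreeing probes ranked by the weaker probe, up to 8 per direction measured on 1 array alone, up to 6 per list past 2-fold, genes of known roles, and the 6 widest probe disagreements. Clone names were passed over, and 9 genes are not reported here. In some lists further genes past 2-fold are given, and the genes of 10 repeated spots, Timp2 and the figure's markers were chosen after their values were seen. Members and lists were chosen with earlier results of these data known. Python 3.11.15 with pandas 2.3.3, and limma 3.58.1 for normexp, were used; the gene summary was tested on simulated data.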

Additional observations from a re-analysis of the deposited data

How the results depend on the processing

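No paired analysis was possible because each ooplast age has 1 array and no test was made. The count of higher genes (816) was 1499 with the percentile over measured probes, 357 with normexp, 2039 with no filter on dim probes and 48 at 4-fold; that of lower genes (1174) was 1768 with no filter and 457 at 4-fold. Genes with every probe higher (25) numbered 45 with quantile scaling, 62 with the percentile over measured probes, 9 with normexp, 41 with the authors' values, 69 with no filter, 0 at 4-fold, 85 by the median probe and 154 at 1.5-fold. Genes with every probe lower (34) numbered 18, 17, 74, 1, 181 and 110 with the percentile over measured probes, normexp, no filter, 4-fold, the median probe and 1.5-fold. All 25 higher genes remained with quantile scaling and 23 of the 34 lower ones. With the authors' values 25 and 24 remained, and with the percentile over measured probes 25 and 18. Fewer remained with no filter, 17 and 20, and with normexp, 8 and 16. Without the probes brighter on young blastocysts 2, an alternative chosen after seeing the data, as was 1.5-fold, 811 genes were higher and 949 lower, and 25 and 28 agreed on every probe. The brightest probe and the median over all probes give no value for probe agreement. The causes were not tested.

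Of 179 named genes 22 changed sign. With the median over all probes Fat3 gave 0.072, Top2a 0.17, Atp5pb 0.18, Timm17b 0.13, Xrcc2 0.16, Polb 0.20, Eef2 0.075, Wipi1 0.55, Uvrag 0.22, Tnpo3 0.20, Kpna4 0.23, Acvr1b -0.18 and Synpo2 0.17. With no filter Xrcc2 gave 0.48, Sirt2 -2.21, Wipi1 0.55, Uvrag 0.56 and Acvr1b -0.18. With the brightest probe Hsf1 gave -0.036, Myl12b 0.46, Vdac1 0.50 and Kdm5c 0.51. Over probes measured on all 6 arrays Nr5a1 gave 1.10 and Synpo2 0.16. Without the probes brighter on young blastocysts 2 Esrra gave 0.80, Inha 0.17 and Cntln 0.18. Of the 35 lists 17 kept a median below that of all genes under all 12 settings and 3 above it, the imprinted, leucocyte and erythroid lists.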

Other observations

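Besides Timp2, 2 probes were at least 16-fold higher in climacteric ooplasts, both for clones with no gene symbol. The transcript named BC071254 was -1.65 in young and 4.75 in climacteric ooplasts (84.6-fold), and lay between 0.65 and 3.01 on the blastocyst arrays, highest on climacteric blastocysts 1. Among the 32 probes bright on both climacteric ooplasts and climacteric blastocysts 1 was also one for Trem2, a receptor of macrophages and microglia outside the marker list (-4.37 and 2.33 in ooplasts, 0.31 on climacteric blastocysts 1). These genes were chosen after their values were seen.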
